A study of Mus musculus with 10 samples.

Results

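Open chromatin was examined around 39 autophagy and mitophagy genes among 21938 protein-coding genes during GATA1-driven erythroid differentiation of G1E-ER4 (G1ER) cells. The 39 genes are a named list of the core machinery and its regulators. G1ER cells are a clonal subline of the mouse G1E line, which lacks functional Gata1, and they carry GATA1 fused to the ligand-binding domain of the estrogen receptor, so that GATA1 activity depends on β-estradiol. All cells, untreated ones included, share this genotype and were grown in IMDM with 15% FBS, 50 ng/mL SCF and 2 U/mL erythropoietin. ATAC-seq, in which the Tn5 transposase cuts accessible DNA, was carried out on about 50000 cells per library from untreated cells (0 h) and from cells kept for 2, 6, 12 or 24 h in 1e-07 M β-estradiol. There were 2 libraries at each of the 5 time points, 10 in all, and the labels do not say whether the replicates came from separate cultures, so the spread between them may be technical.

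Autophagy encloses cytoplasm in a double membrane and delivers it to the lysosome. The ULK kinase complex starts the process, a lipid kinase complex built around Pik3c3 and Becn1 marks the forming membrane, lipid transfer proteins feed it, and a conjugation system related to ubiquitination attaches ATG8 proteins such as LC3 to it. Cargo receptors bind ATG8 proteins, and in reticulocytes the mitochondrial receptor Bnip3l (NIX) is required for the removal of mitochondria. FOXO3 and TFEB are transcription factors that activate autophagy genes, and GATA1 and FOXO3 are both known activators of such genes in erythroid cells.

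The deposited lists give peak summits, single positions on mm10 at which a peak of 1 library was highest, each with a score equal to −log10 of the q-value in that library. A promoter summit was a summit within 1 kb of any GENCODE M21 transcript start of a gene, and a distal summit lay farther than 1 kb from every protein-coding start and within 50 kb of the gene span. Score ranks were expressed as the percentage of peaks of the same library with an equal or lower score, because scores are not scaled between libraries. The lists held 10698 to 19859 peaks, of which 3338 to 10188 were distal, with the shortest list at 24 h (replicate 2) and the longest at 6 h (replicate 2). Read depth is unknown, a gene without a summit was only not called, and a longer list offers more chances of a call. Of 10 erythroid marker genes, 4 had a promoter summit in all 10 libraries and 5 in some, whereas no library listed a promoter summit for any of the 4 mast cell, 3 B cell, 3 T cell, 4 myeloid or 5 non-blood markers, and 2 of 4 megakaryocyte markers had one in all 10.

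Sequences of 6 distal windows and 2 promoters are given first because the results below turn on them. The windows are 201 bases of the mm10 plus strand centred on the highest-scoring summit of the region. Capitals mark AGATAA or TGATAA (the GATA motif) and CACGTG (the E-box bound by TFEB and related factors), searched on both strands, with TTATCT and TTATCA as the reverse complements of the GATA letters. The first is an intronic window of Foxo3 that holds neither motif. It was absent at 0 h, listed in both libraries at 2 and 6 h, and listed in replicate 1 alone at 12 and 24 h. The next is the intronic Foxo3 window gained at 24 h, with 2 GATA motifs, which was also listed in 2 h replicate 1 and 6 h replicate 2.
Foxo3 chr10:42247255-42247455: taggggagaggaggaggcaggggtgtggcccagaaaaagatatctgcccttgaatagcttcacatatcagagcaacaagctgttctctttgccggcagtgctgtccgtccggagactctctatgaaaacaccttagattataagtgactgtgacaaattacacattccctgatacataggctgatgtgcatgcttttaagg
Foxo3 chr10:42265111-42265311: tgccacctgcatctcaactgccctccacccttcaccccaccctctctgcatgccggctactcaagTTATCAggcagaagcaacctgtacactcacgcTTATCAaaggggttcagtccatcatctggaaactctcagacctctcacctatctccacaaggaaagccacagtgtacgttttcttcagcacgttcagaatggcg
Atg2a chr19:6300584-6300784 (gained at 6, 12 and 24 h): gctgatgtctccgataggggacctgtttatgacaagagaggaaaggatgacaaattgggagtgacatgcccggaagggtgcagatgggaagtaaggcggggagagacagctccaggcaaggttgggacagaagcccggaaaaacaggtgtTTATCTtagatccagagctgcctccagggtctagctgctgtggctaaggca
Wipi1 chr11:109628174-109628374 (gained at 12 h): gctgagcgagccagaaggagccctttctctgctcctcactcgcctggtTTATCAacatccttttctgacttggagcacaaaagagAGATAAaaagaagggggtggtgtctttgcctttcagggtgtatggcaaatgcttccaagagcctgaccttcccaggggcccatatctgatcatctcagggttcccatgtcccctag
Atg4b chr1:93764992-93765192 (lost at 6 and 24 h): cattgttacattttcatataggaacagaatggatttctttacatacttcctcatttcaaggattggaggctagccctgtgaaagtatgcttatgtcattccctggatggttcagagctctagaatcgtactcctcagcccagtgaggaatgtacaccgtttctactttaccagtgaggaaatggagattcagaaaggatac
Atg14 chr14:47533694-47533894 (listed in all 10 libraries): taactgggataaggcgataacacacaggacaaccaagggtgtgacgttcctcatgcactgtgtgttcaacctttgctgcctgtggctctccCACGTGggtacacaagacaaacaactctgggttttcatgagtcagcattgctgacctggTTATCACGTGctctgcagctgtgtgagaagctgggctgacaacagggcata

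The Atg14 window is the only one of these 6 with CACGTG, which it holds 2 times, and its last run of capitals is a GATA motif overlapping an E-box. The promoters below are RefSeq windows on mm10, 250 bases before to 50 after an annotated start, written on the strand of the gene with the same motifs in capitals. Ambra1 is shown as the promoter called gained, and Bnip3 as a mitophagy receptor promoter with an E-box.
Ambra1 chr2:91729888-91730187 (plus strand): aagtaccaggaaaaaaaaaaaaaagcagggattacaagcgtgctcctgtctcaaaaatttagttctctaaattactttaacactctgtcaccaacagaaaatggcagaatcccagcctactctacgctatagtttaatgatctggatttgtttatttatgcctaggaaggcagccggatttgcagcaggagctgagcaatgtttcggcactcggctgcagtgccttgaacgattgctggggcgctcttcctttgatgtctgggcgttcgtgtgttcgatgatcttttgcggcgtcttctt
Bnip3 chr7:138909457-138909756 (minus strand): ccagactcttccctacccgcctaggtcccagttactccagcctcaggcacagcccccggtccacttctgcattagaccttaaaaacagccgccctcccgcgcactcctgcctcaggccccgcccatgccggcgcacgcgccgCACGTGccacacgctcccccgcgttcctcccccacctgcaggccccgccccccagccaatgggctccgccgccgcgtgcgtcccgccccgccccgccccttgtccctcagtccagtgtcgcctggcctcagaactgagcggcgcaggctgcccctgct

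Promoters of the autophagy genes were open in most libraries from 0 h on. Of the 39 members, 27 (69.2%) had a promoter summit in all 10 libraries and 12 (30.8%) in some, and none lacked one throughout, against 26.9%, 18.7% and 54.4% of all protein-coding genes. Per library, 32 to 38 of the 39 members had a promoter summit. Replicates 1 and 2 listed 34 and 32 members at 0 h, 34 and 35 after 2 h, 34 and 38 after 6 h, 36 and 36 after 12 h, and 32 and 35 after 24 h. The ranges at 2, 6 and 24 h touched or overlapped that at 0 h, and only at 12 h were both libraries above both 0 h libraries. Of all protein-coding genes, 38.8% and 35.7% were listed at 0 h, 38.8% and 38.4% after 2 h, and 37.5% and 42.9% after 6 h. The shares were 37.9% and 39.3% after 12 h, which overlap 0 h, and 38.4% and 35.8% after 24 h. The highest share of all genes was in 6 h replicate 2, as for the members. The smallest p that an exact permutation test of 2 against 2 libraries allows is 0.333, so no single time point can be told from 0 h by such a test. The heat map of promoter ranks shows this pattern for each gene.

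**Figure D1:**
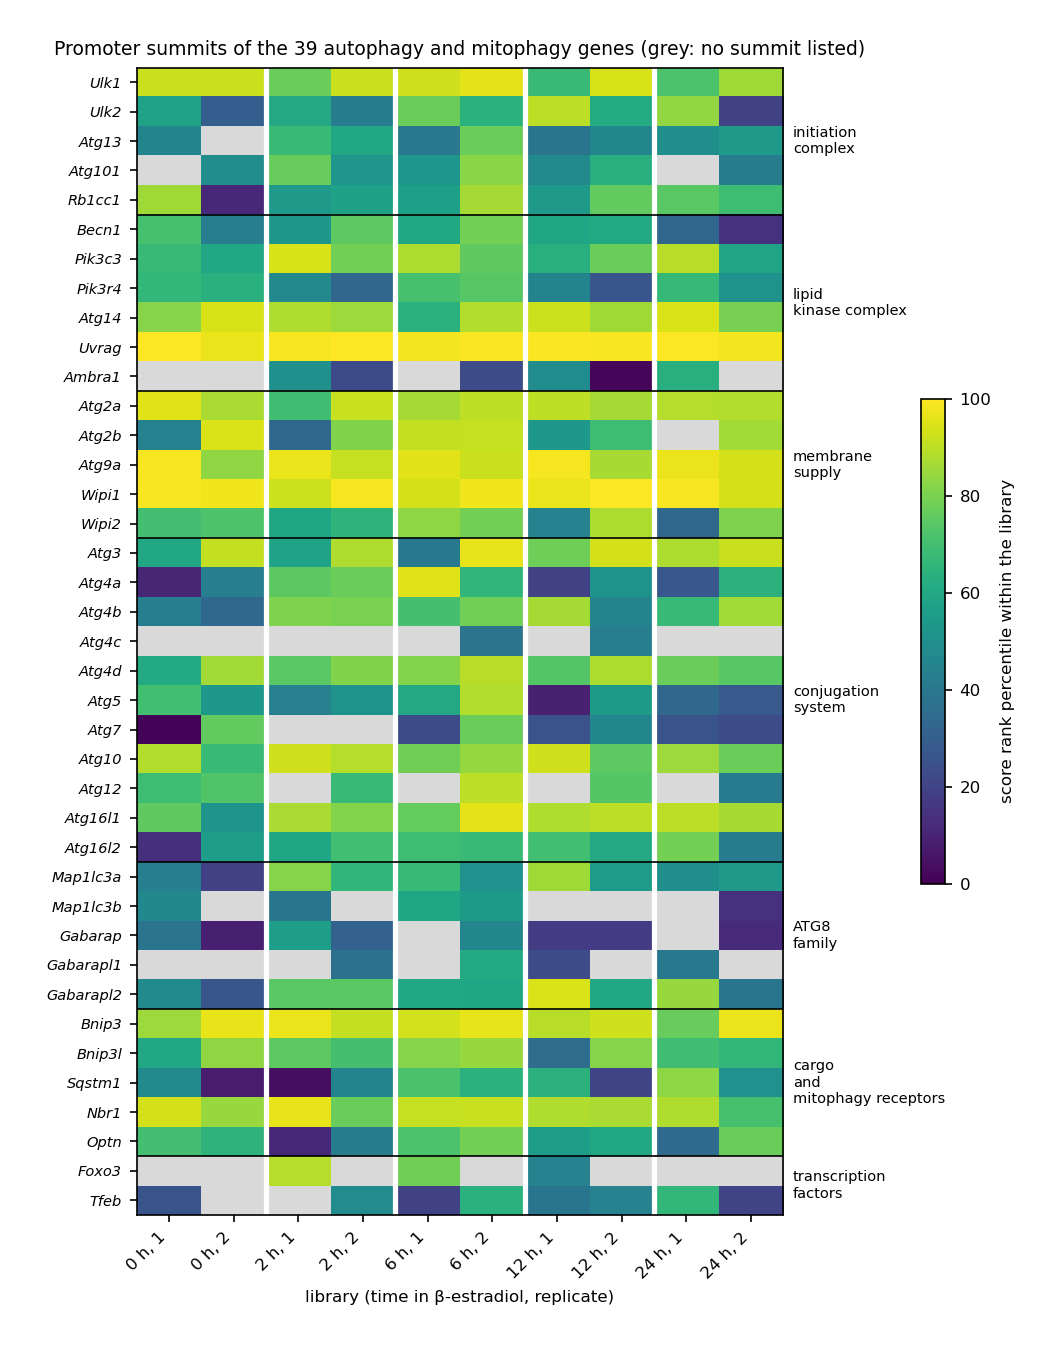
Score rank percentile of the promoter summit (colour) for each of the 39 members (rows, grouped by role) in each of the 10 libraries (columns, time in β-estradiol and replicate), with grey where no summit was listed. The rows of Uvrag and Wipi1 stay at or above the 92.3 percentile in every library, and grey cells occur in 12 rows.

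Among the 5 genes of the initiation complex, Ulk1, Ulk2 and Rb1cc1 (FIP200) had a promoter summit in all 10 libraries. Ulk1, the kinase that starts autophagy, had promoter scores of 15.4 and 17.9 at 0 h, 9.59 and 19.9 after 2 h, 13.5 and 33.2 after 6 h, 7.45 and 24.2 after 12 h, and 8.04 and 15.3 after 24 h. Its score ranks lay between the 67.2 and 95.9 percentiles, and replicate 2 had the higher rank at 0, 2, 6, 12 and 24 h alike. The scaffold Atg13, whose promoter summit is shared with the neighbouring start of Harbi1, was listed at 5.99 and none at 0 h, 7.92 and 8.33 after 2 h, 5.08 and 15.4 after 6 h, 4.89 and 6.81 after 12 h, and 5.67 and 7.48 after 24 h. Atg101, the partner of Atg13, was listed at none and 6.64 at 0 h, 9.50 and 7.20 after 2 h, 5.97 and 17.8 after 6 h, 5.49 and 9.59 after 12 h, and none and 6.11 after 24 h. Neither was called gained at any time because 1 of the 0 h libraries listed it.

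In the lipid kinase complex, 5 of 6 genes were listed at the promoter in every library, namely Becn1, Pik3c3 (the kinase VPS34), its regulator Pik3r4, and the subunits Atg14 and Uvrag. Uvrag had the highest ranked promoter of all members, with scores of 40.4 and 23.7 at 0 h, 23.3 and 47.9 after 2 h, 19.9 and 51.2 after 6 h, 26.6 and 39.1 after 12 h, and 27.1 and 28.7 after 24 h, all between the 97.0 and 99.8 percentiles. Ambra1, a scaffold that binds Becn1, was the exception, with no summit in either 0 h library, 6.08 and 4.39 after 2 h, none and 4.42 after 6 h, 5.59 and 2.32 after 12 h, and 6.91 and none after 24 h. It was therefore gained at 2 h and at 12 h, and its rank in 12 h replicate 2 was at the 1.79 percentile, close to the lowest score that the lists hold (1.30). Both Ambra1 calls were lost when every list was cut to the length of the shortest.

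All 5 genes of membrane supply were listed in at least 9 libraries. Wipi1 and Wipi2 read the lipid made by the kinase complex, Atg9a carries membrane, and Atg2a and Atg2b transfer lipid. Wipi1 (92.3 to 99.6 percentiles) and Atg9a (83.5 to 98.9 percentiles) were near the top of every list. Atg2b, which shares its promoter summit with Gskip, was listed at 5.92 and 19.9 at 0 h, 4.83 and 13.4 after 2 h, 12.5 and 25.4 after 6 h, 6.02 and 11.0 after 12 h, and none and 15.6 after 24 h, and 24 h replicate 1 was the only library without it.

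Of the 11 genes of the conjugation system, 8 were listed in all 10 libraries. Atg7, the activating enzyme at the head of the system, had scores of 2.17 and 10.9 at 0 h, no summit in either 2 h library, 3.92 and 15.1 after 6 h, 4.03 and 6.82 after 12 h, and 4.04 and 4.47 after 24 h. This made it the only member called lost, at 2 h, although its 0 h replicate 1 summit ranked at the 1.04 percentile, and the call was lost with lists of equal length. Atg12, the ubiquitin-like protein attached to Atg5, was listed at 8.86 and 10.2 at 0 h and afterwards only in replicate 2, at 9.90, 23.9, 12.2 and 6.01 at 2, 6, 12 and 24 h, and its summit is shared with Ap3s1. The 4 later replicate 1 libraries lack it, so presence after 0 h followed the replicate number and not time. Atg4c, a protease that trims ATG8 proteins, was the least often listed member, at 5.96 in 6 h replicate 2 and 6.41 in 12 h replicate 2 only.

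In the ATG8 family, 3 of 5 promoters were missing from some libraries. Map1lc3a and Gabarapl2 were listed in all 10. Map1lc3b (LC3B) was listed at 6.15 and none at 0 h, 5.16 and none after 2 h, 6.59 and 8.49 after 6 h, in neither library at 12 h, and none and 3.79 after 24 h. Gabarapl1 was listed in neither 0 h library, in replicate 2 at 2 h (5.64) and 6 h (9.95), and in replicate 1 at 12 h (3.89) and 24 h (4.98). None of the Gabarapl1 summits ranked above the 61.2 percentile of its list. Gabarap was listed at 5.44 and 3.34 at 0 h, 6.62 and 5.12 after 2 h, none and 7.02 after 6 h, 3.61 and 4.02 after 12 h, and none and 3.57 after 24 h. No call was made for any of the 3 genes, since at no time point did both libraries differ from both at 0 h.

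Every promoter of the 5 cargo and mitophagy receptors was listed in every library. Bnip3l, the receptor that reticulocytes use to clear mitochondria, had promoter scores of 7.53 and 13.1 at 0 h, 9.20 and 10.4 after 2 h, 9.75 and 19.2 after 6 h, 4.67 and 15.2 after 12 h, and 7.74 and 9.42 after 24 h. Its score ranks were at the 59.6 and 83.2 percentiles at 0 h and the 69.4 and 66.1 percentiles at 24 h, so the 24 h values lay within the 0 h range. Bnip3, its hypoxia-responsive relative, ranked higher throughout, at the 85.4 and 96.8 percentiles at 0 h, 97.0 and 90.9 after 2 h, 93.1 and 96.2 after 6 h, 89.2 and 92.6 after 12 h, and 76.8 and 97.1 after 24 h. These groups overlap at every time. Sqstm1, the ubiquitin receptor p62, had scores of 6.26 and 3.23 at 0 h, 2.61 and 6.38 after 2 h, 7.93 and 10.7 after 6 h, 7.14 and 4.26 after 12 h, and 10.1 and 7.06 after 24 h. Its promoter summit is shared with the start of Mgat4b.

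Neither transcription factor was listed at the promoter in all libraries. Tfeb was listed at 4.49 and none at 0 h, none and 6.74 after 2 h, 3.73 and 10.6 after 6 h, 4.90 and 6.61 after 12 h, and 7.37 and 4.27 after 24 h. It was not called gained, since 0 h replicate 1 listed it, but with lists of equal length it was gained at 12 and 24 h. Foxo3 was listed within 1 kb of a start in 3 libraries only, at 12.9 (2 h), 9.03 (6 h) and 5.29 (12 h), all in replicate 1, but its summits lay a median of 956 bp from the nearest start, at the edge of the limit. When nearby summits were merged into regions, the Foxo3 promoter region was listed in all 10 libraries, and it was the only member whose count changed in this way, which gave 28 of 39 members (71.8%) against 27.2% of all genes.

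Promoter calls were rare. A promoter was called gained when both libraries of a time point and neither 0 h library listed it, and lost in the opposite case. At 2 h 1 member was gained (Ambra1), where 0.666% of all protein-coding genes were gained, and 1 was lost (Atg7), where 0.36% were. At 6 h no member was gained or lost, with 1.1% and 0.0456% of all genes. At 12 h 1 was gained (Ambra1, 0.77% of all genes) and none lost (0.315%), and at 24 h none was gained (0.47%) or lost (0.565%). Only 4 members could be gained, having no promoter summit in either 0 h library, and 31 could be lost, having one in both. Among all genes of those kinds, 1.12% were gained and 1.07% lost at 2 h, and 0.792% gained and 1.67% lost at 24 h. A count of 1 member is too small to set apart from these shares.

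Distal summits lay near 37 of the 39 members, whereas Atg101 and Pik3r4 had none in any library (2 members, 5.13%, against 35.2% of all genes). A list of distal peaks holds more summits near the members when it is longer, so the counts are given both ways. The 39 members had 33 and 24 distal summits at 0 h, 48 and 37 after 2 h, 33 and 58 after 6 h, 49 and 35 after 12 h, and 46 and 21 after 24 h, with a summit counted again where members share a window, as Atg13 and Ambra1 do. Per 1000 distal peaks of the library this was 4.91 and 5.51 at 0 h, 6.55 and 6.01 after 2 h, 5.53 and 5.69 after 6 h, 7.05 and 6.41 after 12 h, and 6.71 and 6.29 after 24 h. The raw counts at 0 h and 24 h overlapped, while on the scaled counts both 0 h libraries were lowest, the nearest treated library being 5.53 against 5.51. No scaled count was made for all genes or for genes with the same number at 0 h. The members are therefore not set apart from other genes by this order. The scaled means ± SD (n = 2) were 5.21 ± 0.426 at 0 h, 6.28 ± 0.380 after 2 h, 5.61 ± 0.114 after 6 h, 6.73 ± 0.449 after 12 h and 6.50 ± 0.294 after 24 h, and they rest on 21 to 58 summits per library.

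**Figure D2:**
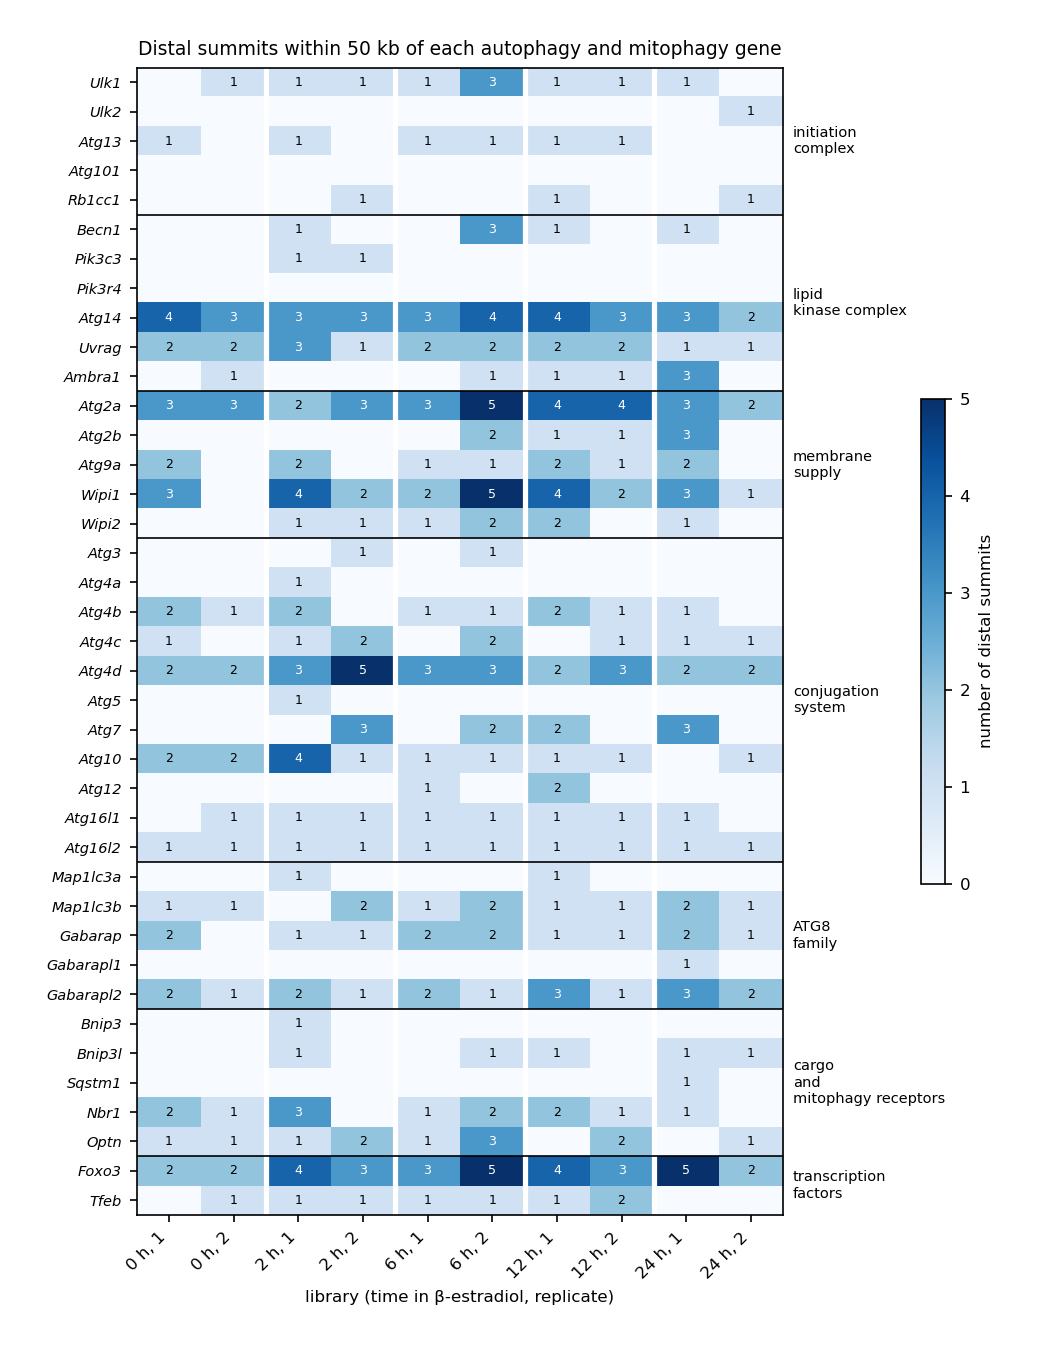
Number of distal summits within 50 kb of each of the 39 members (rows, grouped by role) in each of the 10 libraries (columns, time in β-estradiol and replicate), with empty cells at 0. Foxo3, Atg14 and Atg2a have the most, and Foxo3 goes from 2 and 2 at 0 h to between 3 and 5 at 2, 6 and 12 h.

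A member was called as having more distal summits when both libraries of a time point exceeded both 0 h libraries, and fewer in the opposite case. At 2 h 4 members had more (Pik3c3, Wipi2, Atg4d and Foxo3), where 5.16% of all genes did, and none had fewer (1.25% of all genes). At 6 h 3 had more (Wipi2, Atg4d and Foxo3, 8.31% of all genes) and 1 had fewer (Atg10, 0.647%). At 12 h 3 had more (Atg2a, Atg2b and Foxo3, 4.65%) and 1 had fewer (Atg10, 2.15%). At 24 h 1 had more (Bnip3l, 2.53%) and 2 had fewer (Uvrag and Atg10, 3.49%). Genes with the same mean number at 0 h would give 2.15, 3.50, 1.89 and 0.959 members with more at 2, 6, 12 and 24 h, beside the 4, 3, 3 and 1 observed. With lists of equal length the members with more were 3 at 2 h (Pik3c3, Wipi2 and Foxo3), none at 6 or 12 h, and 1 at 24 h, which was Atg4c and not Bnip3l. Those with fewer were then Atg4b at 2 h, none at 6 h, Atg10 at 12 h and Atg4b at 24 h.

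Foxo3 had the most distal summits of the members, 33 over all libraries. It had 2 and 2 at 0 h, 4 and 3 after 2 h, 3 and 5 after 6 h, 4 and 3 after 12 h, and 5 and 2 after 24 h. Every library at 2, 6 and 12 h was above both at 0 h, and at 24 h the replicates parted. Part of this number came from the upstream region at the 1 kb limit, whose summits count as distal when they fall beyond it. Counted as merged distal regions instead, Foxo3 had 1 and 1 at 0 h, 4 and 2 after 2 h, 3 and 4 after 6 h, 3 and 2 after 12 h, and 4 and 1 after 24 h, and the calls at 2, 6 and 12 h held. With lists of equal length only the call at 2 h held, and with a reach of 25 kb those at 2 and 12 h.

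Of the other members with many summits, Atg14 and Atg2a had 32 each. Atg14 had 4 and 3 at 0 h, 3 and 3 after 2 h, 3 and 4 after 6 h, 4 and 3 after 12 h, and 3 and 2 after 24 h, which overlap throughout. Atg2a had 3 and 3 at 0 h, 2 and 3 after 2 h, 3 and 5 after 6 h, 4 and 4 after 12 h, and 3 and 2 after 24 h, so only 12 h stood above 0 h. Atg10, the enzyme that joins Atg12 to Atg5, had 2 and 2 at 0 h, 4 and 1 after 2 h, 1 and 1 after 6 h, 1 and 1 after 12 h, and 0 and 1 after 24 h, below 0 h from 6 h on. With lists of equal length only its call at 12 h held, and the Uvrag call at 24 h was lost as well.

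Bnip3l had no distal summit at 0 h, 1 and 0 after 2 h, 0 and 1 after 6 h, 1 and 0 after 12 h, and 1 and 1 after 24 h. Its 2 summits at 24 h lay in separate regions, 55.5 and 53.4 kb from the start, and each was listed in 1 of the 24 h libraries, so no Bnip3l region was called gained. The higher number at 24 h was lost with lists of equal length and with a reach of 25 kb. Ulk1 had 0 and 1 at 0 h, 1 and 1 after 2 h, 1 and 3 after 6 h, 1 and 1 after 12 h, and 1 and 0 after 24 h, with no call. Map1lc3b had 1 and 1 at 0 h, 0 and 2 after 2 h, 1 and 2 after 6 h, 1 and 1 after 12 h, and 2 and 1 after 24 h. Tfeb, Bnip3, Sqstm1 and Gabarapl1 had at most 2 in any library and no call, and the only distal summits of Sqstm1 and of Gabarapl1 were 1 each, in 24 h replicate 1.

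In the exact permutation test of 12 and 24 h against 0 and 2 h (two-sided, 4 against 4 libraries, 70 splits, smallest possible p = 0.0286), 0.823% of 14214 genes had an unadjusted p below 0.05, and none passed Benjamini-Hochberg adjustment over all genes tested. None of the 37 members tested had an unadjusted p below 0.05. The lowest member p values were 0.114 for Atg10, whose mean number fell from 2.25 at 0 and 2 h to 0.75 at 12 and 24 h, and 0.143 for Atg2b, with 0 and 1.25 (exact permutation test, adjusted p = 1 for both).

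**Figure D3:**
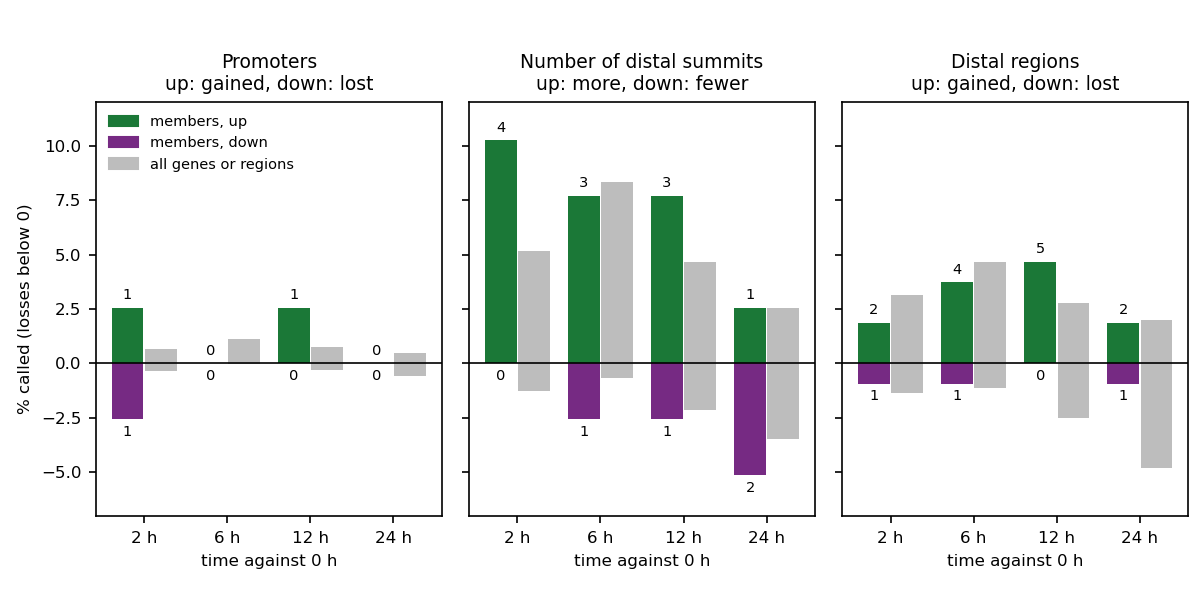
Percentage of members called (green up, purple down, with the number of members or of their regions called) and of all protein-coding genes or all distal regions called (grey) at each time against 0 h, for promoters, numbers of distal summits and distal regions. Promoter counts are 0 or 1 at every time, and the bars for numbers of distal summits reach 4 members at 2 h.

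Merging summit windows of 250 bp on each side gave 107 distal regions near 37 members, of which 69 lay in introns, 7 in exons and 31 between genes. Only 39 lay inside the body of the member itself, and for 54 the nearest protein-coding start belonged to another gene, so that closeness does not assign a region to a member. Of the 107, 7 (6.54%) were listed in all 10 libraries and 47 (43.9%) in 1 library, against 6.34% and 39.8% of all 18172 distal regions.

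A distal region was gained or lost by the same definition as a promoter. At 2 h 2 regions of members were gained (3.14% of all distal regions) and 1 lost (1.34%). After 6 h the gained regions numbered 4 (4.64%) and the lost ones 1 (1.12%). After 12 h 5 regions had been gained (2.79%) and none lost (2.52%), and after 24 h the counts were 2 gained (1.98%) and 1 lost (4.79%). These counts out of 107 amount to 1.87%, 3.74%, 4.67% and 1.87% gained. They covered 12 regions near 8 members, 10 gained and 2 lost, and 9 of the 12 were called at 1 time point only. Of the 16 calls, 10 held with lists of equal length and all 16 held with windows of 100 bp. A cut at scores of at least 2 could not change these calls, since the lowest score in the 12 regions was 2.02.

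**Figure D4:**
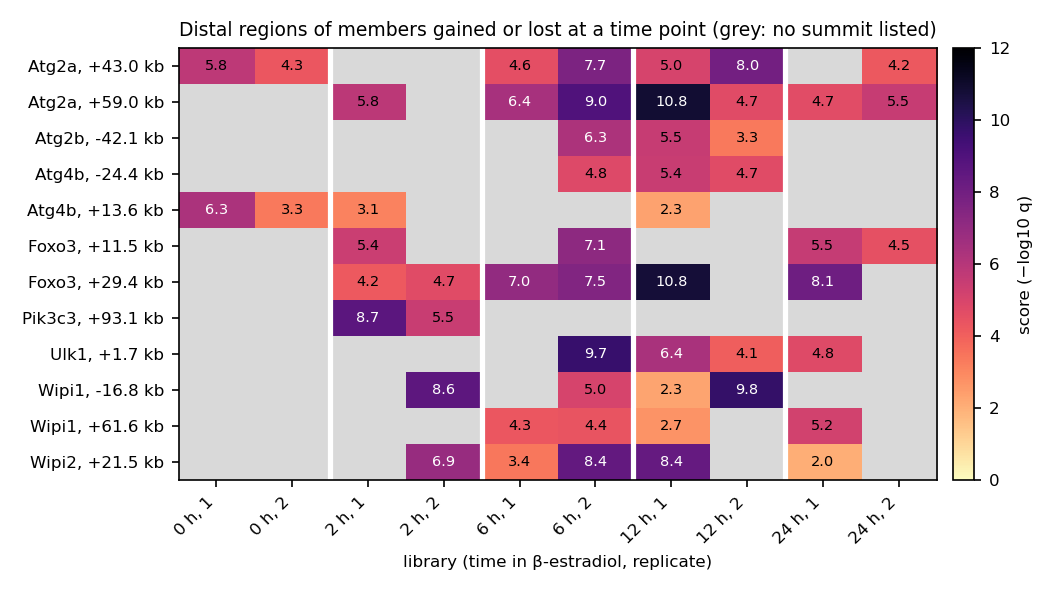
Peak score (−log10 q, colour and number) of the 12 distal regions called gained or lost at any time (rows, named by member and by distance in kb from its first protein-coding start, positive in the direction of transcription) in the 10 libraries, with grey where none was listed. The Atg2a region at +59.0 kb is listed in all 6 libraries of 6, 12 and 24 h and is grey at 0 h.

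The clearest course was that of an intergenic region 59.0 kb from the Atg2a start (chr19:6300339-6300971). It was absent from both 0 h libraries, listed at 5.83 and none after 2 h, 6.41 and 8.99 after 6 h, 10.8 and 4.70 after 12 h, and 4.65 and 5.52 after 24 h, and its gain at 6, 12 and 24 h also held with lists of equal length. Its nearest protein-coding start, 2770 bp away, is that of Ehd1, and the window printed above holds 1 GATA motif. Another region near Atg2a (chr19:6284296-6285020, an intron of Ehd1) was listed at 5.79 and 4.28 at 0 h, in neither library at 2 h, at 4.56 and 7.66 after 6 h, 5.03 and 7.96 after 12 h, and none and 4.22 after 24 h. It was lost at 2 h and listed again in both libraries at 6 and 12 h.

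Foxo3 had 2 gained regions, both in its introns. The region at 29.4 kb (chr10:42247003-42247673) was in neither 0 h library, at 4.22 and 4.70 after 2 h, 6.99 and 7.51 after 6 h, 10.8 and none after 12 h, and 8.08 and none after 24 h. It was gained at 2 and 6 h and was listed only in replicate 1 at 12 and 24 h, and with lists of equal length the 2 h call was lost and the 6 h call held. The region at 11.5 kb (chr10:42264961-42265542) was at 5.40 and none after 2 h, none and 7.15 after 6 h, in neither library at 0 or 12 h, and at 5.55 and 4.51 after 24 h, where it was gained, also with lists of equal length. A further intronic region at 32.2 kb was listed in 8 libraries, both 0 h libraries among them.

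**Figure D5:**
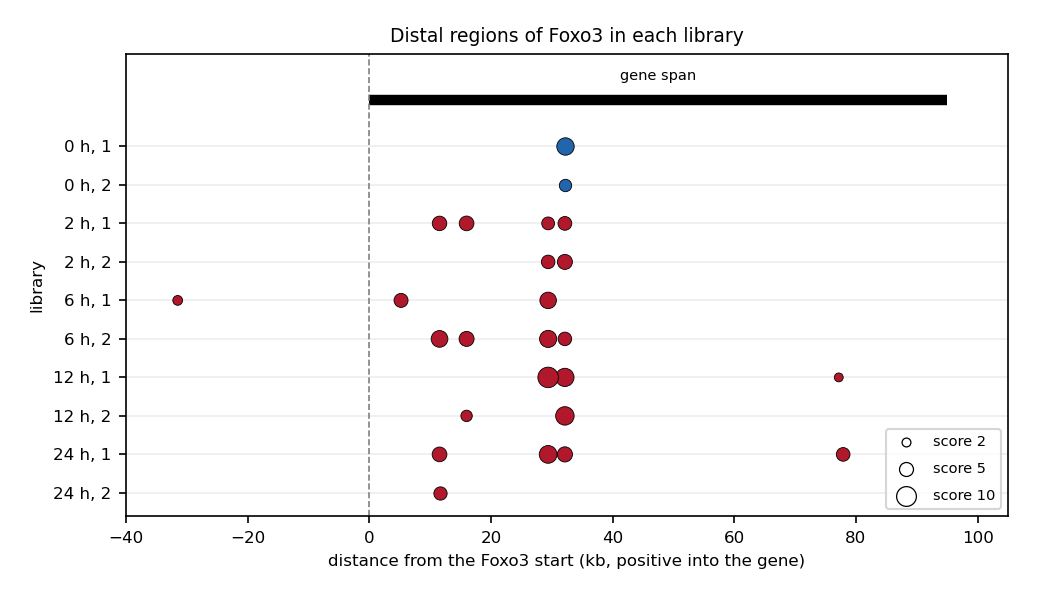
Distal regions of Foxo3 by distance from its start (x axis, kb, positive into the gene) in each of the 10 libraries (rows), with point area proportional to peak score, blue at 0 h and red after β-estradiol, and the gene span as a black bar. Both 0 h libraries hold the region at 32.2 kb alone, and 29.4 kb and 11.5 kb fill in afterwards.

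The other gained regions were called at 1 time point each. An intronic region of Ulk1 1.7 kb from its start (chr5:110808070-110808632) was first listed in 6 h replicate 2 (9.68), then at 6.36 and 4.05 after 12 h, where it was gained, and at 4.77 and none after 24 h. An intronic region of Wipi2 (chr5:142650073-142651377) was listed at none and 6.88 after 2 h, 3.41 and 8.40 after 6 h, where it was gained, 8.36 and none after 12 h, and 2.02 and none after 24 h. Near Wipi1, a region in an intron of Arsg (chr11:109549537-109550273) was gained at 6 h at 4.28 and 4.40 and was also in replicate 1 at 12 h (2.71) and 24 h (5.20). These 3 calls were all lost with lists of equal length.

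The intergenic region 16.8 kb upstream of Wipi1 (chr11:109627692-109628880) was listed at 8.62 in 2 h replicate 2, 5.05 in 6 h replicate 2, and 2.27 and 9.77 after 12 h, where it was gained, and its window holds 2 GATA motifs. Near Atg2b, a region in an intron of Ak7 (chr12:105727084-105727708) was at 6.28 in 6 h replicate 2 and 5.52 and 3.34 after 12 h. Near Pik3c3, an intergenic region (chr18:30365551-30366077) was listed at 2 h alone, at 8.66 and 5.48. The Wipi1 and Atg2b calls were lost with lists of equal length, and the Pik3c3 call held.

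Atg4b, the main ATG8 protease, had a region lost and a region gained. The intronic region 13.6 kb into the gene (chr1:93764704-93765342) was listed at 6.30 and 3.34 at 0 h, 3.14 and none after 2 h, in neither library at 6 h, 2.33 and none after 12 h, and in neither at 24 h, and its losses at 6 and 24 h held with lists of equal length. A region in an intron of Thap4 (chr1:93726888-93727392) was in 6 h replicate 2 (4.82) and at 5.45 and 4.70 after 12 h, where it was gained, also with equal lists.

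The 7 distal regions in all libraries lay near Atg14, Atg4d, Uvrag, Atg16l2 and Gabarapl2, none inside the member. Only the Uvrag region, 10.4 kb upstream, had the member as its nearest start, with scores of 6.36 to 14.4. The Atg14 region printed above (chr14:47533437-47534086), between the end of Atg14 and Fbxo34, was at 17.1 and 19.1 at 0 h, 9.58 and 7.94 after 2 h, 11.3 and 18.8 after 6 h, 15.4 and 14.4 after 12 h, and 10.0 and 7.04 after 24 h. Its scores at 2, 12 and 24 h were below both 0 h scores, but scores are not scaled between libraries. By score rank it was at the 94.3 and 93.5 percentiles at 0 h and the 94.7 and 80.2 percentiles at 12 h, which overlap. Its ranks at 2 h (77.2 and 57.1), 6 h (87.5 and 83.8) and 24 h (82.5 and 50.3) were below both 0 h ranks. The Atg4d region at 48.3 kb (chr9:21313229-21313955), 1267 bp from the start of Ap1m2, was at 4.57 and 9.26 at 0 h and 15.9 and 12.2 after 24 h. By score rank it was at the 26.8 and 67.8 percentiles at 0 h and the 95.6 and 77.6 percentiles at 24 h, which do not overlap. The share of all regions whose ranks part from 0 h in this way was not counted. The Atg14 and Atg4d regions are therefore not set apart from other regions by their ranks.

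Score ranks were compared with limma on normal scores of the rank within each library, over 6234 regions listed in all 10 libraries, 34 of them promoter or distal regions of members. No region of a member, and none of the 6234, passed an adjusted p of 0.05 at 2, 6, 12 or 24 h (0% called at each) in the fit without a replicate term. At an unadjusted p below 0.05 there were 2, 1, 0 and 2 regions of members, against 2.63%, 2.33%, 2.74% and 3.98% of all regions. These were the Atg14 region at 2 h (change fell by 1.52 ± 0.593 SE in normal scores) and 24 h (fell by 1.30 ± 0.593), the Optn promoter at 2 h (fell by 1.56 ± 0.685), the Atg4a promoter at 6 h (1.71 ± 0.778 higher) and the Atg4d region at 24 h (1.67 ± 0.747 higher), each with a limma adjusted p of 1. The median change over the 34 regions was 0.00123, 0.17, 0.106 and 0.00849 at 2, 6, 12 and 24 h, beside medians near 0 over all regions. In simulated data with this layout, a change of 2 on the log2 scale at 24 h was recovered in 1.5% of 200 changed regions out of 6234. The simulated spread of each region was that of its log2 scores over all 10 libraries, differences between libraries and time points included. It may exceed the spread of the ranks, so the recovery may be understated. How much a miss says about these regions was therefore not settled.

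Sequence motifs were counted in the 201-base windows. The GATA motif (AGATAA or TGATAA, either strand) was in 46 of 107 distal regions of members (43.0%), against 38.4% of all distal regions and 9.13% of promoter regions. It was in 6 of the 12 regions gained or lost, those near Foxo3 at 11.5 kb, Atg2a (both), Wipi1 (both) and Wipi2. These include the Atg2a region lost at 2 h, and the share among all distal regions gained or lost was not counted. CACGTG was in 3 of 107 (2.80%, 3.72% of all distal regions), the forkhead letters GTAAACA in 3 (2.80%, 2.96%), and the ETS letters CCGGAAG in 4 (3.74%, 1.60%). A match is a run of letters and not evidence of binding.

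RefSeq promoter windows (from 250 bases before a start to 50 after it) were matched by symbol to 32 members, which have 37 promoters. The GC box letters GGGCGG were in 25 of the 37 (67.6%), against 35.7% of 32851 promoters, and the GATA motif was in 2 (5.41%, Atg4a and Atg4d), against 18.6%. CACGTG was in 5 (13.5%, against 7.15%), those of Atg14, Atg3, Atg5, Atg7 and Bnip3, of which the Bnip3 one is printed above. CCGGAAG was in 3 (8.11%, against 8.86%) and GTAAACA in none (3.65% of all). The 32851 promoters were not limited to those listed in these libraries, whereas every member was listed. In the 10809 promoter regions of these lists (201-base windows), GGGCGG was in 51.9%, the GATA motif in 9.13% and CACGTG in 7.42%. CCGGAAG was in 13.4% of them and GTAAACA in 1.49%. Those windows differ in length and placement, and a background of open promoters in RefSeq windows was not tested.

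Other genes of the pathway were counted in the same way. Of 55 lysosome, fusion, mitophagy, upstream kinase, phagophore and transcription factor genes outside the 39, 34 had a promoter summit in all 10 libraries, 17 in some and 4 in none. The promoter of Fkbp8, a mitochondrial receptor, was gained at 6 h, which is 1 of the 55 (1.82%) beside 1.1% of all genes. Lost promoters numbered 1 of the 55 at 2 h and 1 at 24 h, beside 0.36% and 0.565% of all genes. Counts of 1 gene are too small to set apart from these shares. More distal summits than at 0 h were counted for 2, 12, 4 and 3 of the 55 at 2, 6, 12 and 24 h, beside 5.16%, 8.31%, 4.65% and 2.53% of all genes, and fewer for 0, 0, 2 and 4, beside 1.25%, 0.647%, 2.15% and 3.49%. The 12 with more at 6 h amount to 21.8% of the 55, above the share of all genes, where the 3 members amount to 7.69%. The 55 genes had a mean of 1.18 distal summits per library, against 0.684 over all genes, and the longest list was at 6 h. Their counts were not matched on the number at 0 h or repeated with lists of equal length, where no member had more at 6 h. The 12 are therefore not set apart from all genes or from the members. At 24 h those with more were Bcl2l13 and Fkbp8, both mitophagy receptors, and Prkaa1, a subunit of the energy-sensing kinase AMPK, and those with fewer included Atp6v0d1, a subunit of the lysosomal proton pump, and Stx17 and Vamp8, which fuse autophagosomes with lysosomes. Among the markers of cell types at 24 h, Tfrc had more, and Tal1 and the mast cell genes Ms4a2, Fcer1a and Cpa3 were among those with fewer, and the part of any change in cell make-up in the member values was not tested.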

How the data were processed

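The authors trimmed adaptors, aligned ATAC-seq reads to mm10, kept uniquely mapped reads and called peaks in each library with MACS2 (no fragment model). Bowtie2 is named in the methods, whereas the processing notes give Bowtie 1.0.0 and Picard, so the aligner is not settled. Each deposited list gives 1 bp summits with a score, the −log10 q-value of the peak in its own library. No shift for the Tn5 cut is stated, so summits are uncertain by bases to a fragment length. Libraries were grouped by time from the sample titles.

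Here, summits on chromosomes 1 to 19, X and Y were placed against GENCODE M21 with Python 3.11.15, pandas 2.3.3 and scipy 1.17.1, and ranks were fitted with limma 3.58.1 in R 4.3.3, with a threshold of 0.05. The limma fit and the permutation test were tested on simulated data. Members and lists were chosen with earlier results of these data known. Named with every library value were 8 members of interest (Bnip3l, Bnip3, Foxo3, Ulk1, Map1lc3b, Gabarapl1, Sqstm1, Tfeb), members with a promoter in some libraries or a distal region gained or lost, and the 3 with most distal summits. Alternatives were equal list lengths (10698 peaks), scores of at least 2, other distances and windows, starts of protein-coding transcripts only, a replicate block, and each library left out. Promoter and distal regions, as merged regions, were alternatives added after seeing the data. The genome sequence had the chromosome lengths of mm10. Calls of some genes outside the 39 are not reported here.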

Additional observations from a re-analysis of the deposited data

How the results depend on the processing

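With every list cut to 10698 peaks, the member promoters gained at 2 h went from 1 to 0 and those lost at 2 h from 1 to 0, while 1 (Gabarap) was lost at 6 h and at 12 h and 1 (Tfeb) was gained at 24 h. At 12 h the gained promoter became Tfeb in place of Ambra1. The distal regions of members under equal lists were 1 gained and 3 lost at 2 h, 3 lost at 6 h, 3 gained and 2 lost at 12 h, and the members with a changed number of distal summits were 1 with fewer at 2 h, 0 with more and 0 with fewer at 6 h, 0 with more at 12 h, and 1 with fewer at 24 h (Atg4b in place of Uvrag and Atg10). Cutting the lists left 67 of the 107 regions. With promoter summits within 500 bp, 2 members were gained at 2 h and 2 at 12 h (Ambra1 and Sqstm1) and 1 at 24 h (Sqstm1). With windows of 100 bp, 4 regions were gained at 2 h and 2 lost at 6 h. With a distal reach of 25 kb, 3 regions were gained at 12 h and 1 at 24 h, and 2, 1, 1 and 0 members had more distal summits at 2, 6, 12 and 24 h. In these cases the cause was not tested beyond the smaller lists and distances. Scores of at least 2, protein-coding transcripts only, merged regions and the other limma settings moved no member count by over 1.5 times. In all, 100 of 126 values were within that limit, but 26 of them came from the score cut, which left all 107 regions. The limma member counts were 0 in every setting. With lists of equal length 15 values moved and 11 did not. Only counts were compared, so the 12 h promoter gain counts as unmoved although its gene changed.

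Leaving out 1 library of a comparison leaves a time point with 1 library, so that a call needs fewer libraries, and the counts rise. At 2, 6, 12 and 24 h the promoters gained were then 2 to 2, 1 to 3, 2 to 3 and 0 to 2, and lost 1 to 2, 0 to 2, 0 to 1 and 0 to 3. The distal regions gained were 5 to 17, 6 to 24, 7 to 22 and 2 to 24, and lost 2 to 4, 1 to 5, 0 to 6 and 3 to 8. Members with more distal summits were 7 to 14, 4 to 14, 6 to 12 and 1 to 11, and with fewer 1 to 4, 1 to 3, 1 to 2 and 3 to 6. The exact permutation test then called 0 members after adjustment and 0 to 1 at an unadjusted p below 0.05, and limma called 0 member regions throughout.

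The replicate block in limma gave 0 called member regions at 2, 6, 12 and 24 h, and over all 6234 regions 0, 0, 0 and 8 (1 higher and 7 lower at 24 h). Deviations of same-numbered libraries from their time point correlated at 0.177 to 0.359 over pairs of time points, but with 2 replicate numbers this does not show that the numbers pair the libraries. Calls of presence and number take no block.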
